A study of Mus musculus with 6 samples.

Results

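The transcriptome of control gonadotrope cells was read from 3 arrays of LβT2 cells transfected with scrambled siRNA, out of 6 samples in the series. The 3 arrays were taken by their transfection label alone, and the other 3, from cells given an siRNA named Gas, were not used. LβT2 is an immortalised mouse line derived from a pituitary tumour of a transgenic mouse, whose transforming gene was driven by a luteinising hormone β-subunit promoter. The 3 samples carried the strain label CB6F1/J, were grown in DMEM with fetal bovine serum and glutamine, and were harvested 48 h after transfection. No untransfected cells were among the samples, so these levels are those of transfected cells of 1 established line. Replicates were numbered 1 to 3, and nothing in the labels says whether the RNA came from separate cultures, so the spread given here is that between these samples and may be technical.

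Gonadotropes are the anterior pituitary cells that make luteinising hormone and follicle-stimulating hormone. Each hormone joins a common α-subunit, encoded by Cga, to its own β-subunit, encoded by Lhb or Fshb. Pulses of gonadotropin-releasing hormone from the hypothalamus act through the receptor Gnrhr to drive synthesis and release, activins raise Fshb transcription and inhibin opposes them, and part of the hormone is stored in dense granules that are released by calcium-triggered exocytosis.

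Expression was measured on a mouse whole-genome bead array with 45281 probes, of which 34885 carried a single gene symbol and stood for 19057 genes. A gene was represented by its brightest probe, by the mean of log2 intensity over the 3 arrays. The deposited intensities are linear and keep the background glow of the array, so a gene that gives no signal sits at a floor and not at 0. That floor was read from each array as the mode of the density of log2 intensity, which was 130 on the arrays. The spread of the values below the mode gave a background SD of 9.71 to 9.74 intensity units and a bound, the 95th percentile of background, at 146, or 1.12 times the mode. A gene was called at background when it was above the bound on 0 of 3 arrays, partly above on 1 or 2, and otherwise dim (under 2 times the mode), intermediate (from 2 to under 8 times) or bright (8 times or more). Brightness also depends on how well a probe binds and labels, so each level is read against background and not against the level of another gene. The number of arrays limits the precision of every value.

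Of the 19057 genes, 9876 (51.8%) were above the bound on 3 of 3 arrays and 7026 (36.9%) were at background. Bright genes numbered 3069 (16.1%), intermediate genes 3755 and dim genes 3052, so 35.8% reached at least 2 times the mode. The remaining 2155 genes were above the bound on some arrays only. The choice of the brightest probe favours genes with many probes: 39.1% of the 9885 genes with 1 probe were above the bound, against 79.9% of the 1582 genes with 4 or more. Averaging all probes of a gene in place of taking the brightest left 1747 bright genes.

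**Figure D1:**
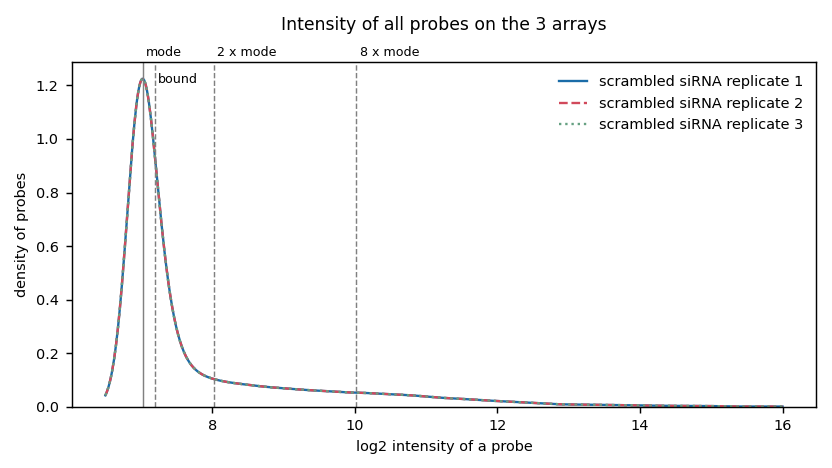
Density of log2 intensity over all probes on each of the 3 scrambled siRNA arrays (x axis, log2 intensity; y axis, density). The solid vertical line marks the mode at 130 intensity units, and the dashed lines mark the bound at 146, 2 times the mode and 8 times the mode. The 3 curves lie on each other, with a sharp peak at the mode and a long tail to the right.

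The markers of the gonadotrope were present, with Fshb as the exception. Cga, the common α-subunit, had intensities of 26635, 26516 and 29442 in replicates 1, 2 and 3, a mean of 211 times the mode with an SD of 0.0854 on the log2 scale (n = 3), from 1 probe. Gnrhr, the receptor of gonadotropin-releasing hormone, had intensities of 15575, 14079 and 15669, or 116 times the mode (SD 0.0867). Both were bright on every array, and Cga was among the 20 brightest genes once ribosomal protein and unnamed genes were left out. Lhb, the β-subunit of luteinising hormone, was intermediate at 662, 622 and 630, or 4.91 times the mode (SD 0.0475), and its other probe read 206, 264 and 217, which was 1.75 times the mode. Nr5a1, which encodes steroidogenic factor 1, a nuclear receptor that activates gonadotrope genes, was intermediate at 398, 411 and 374, or 3.03 times the mode, with a dimmer probe at 2.21 times. Thus both probes of Lhb and both of Nr5a1 lay above the bound, at levels that differed between the probes of 1 gene. With the mean of both probes, Lhb moved from 2.29 to 1.55 log2 units over the mode. Fshb, the β-subunit of follicle-stimulating hormone, read 122, 115 and 135 and was above the bound on 0 of 3 arrays, at 0.951 times the mode.

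The 3 subunit genes therefore fell into 3 classes, and the sequence around their start sites is shown because the factors known to act on the subunit genes were measured on the same arrays. The windows run from 250 bases before to 50 bases after the annotated start, 5′ to 3′ on the gene's strand, and are RefSeq sequence of build GRCm38.p6. Cga lies at chr4:34893529-34893828 on the plus strand, Lhb at chr7:45420696-45420995 on the plus strand and Fshb at chr2:107059602-107059901 on the minus strand. Capitals mark matches, on either strand, to 2 motifs: TGNCCTTG, bound by steroidogenic factor 1, and CACCCCCNC, bound by the early growth response factor Egr1.
Cga: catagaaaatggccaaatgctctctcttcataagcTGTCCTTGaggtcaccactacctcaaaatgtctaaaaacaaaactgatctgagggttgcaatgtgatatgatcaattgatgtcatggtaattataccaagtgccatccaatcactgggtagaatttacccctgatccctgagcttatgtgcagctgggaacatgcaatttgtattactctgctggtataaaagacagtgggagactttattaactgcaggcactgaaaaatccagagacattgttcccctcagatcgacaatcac
Lhb: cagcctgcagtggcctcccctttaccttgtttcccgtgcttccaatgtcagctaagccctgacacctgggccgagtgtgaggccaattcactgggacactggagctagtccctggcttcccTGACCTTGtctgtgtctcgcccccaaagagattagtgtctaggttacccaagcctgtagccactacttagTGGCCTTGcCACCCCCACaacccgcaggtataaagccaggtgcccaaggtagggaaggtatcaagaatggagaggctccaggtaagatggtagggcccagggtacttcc
Fshb: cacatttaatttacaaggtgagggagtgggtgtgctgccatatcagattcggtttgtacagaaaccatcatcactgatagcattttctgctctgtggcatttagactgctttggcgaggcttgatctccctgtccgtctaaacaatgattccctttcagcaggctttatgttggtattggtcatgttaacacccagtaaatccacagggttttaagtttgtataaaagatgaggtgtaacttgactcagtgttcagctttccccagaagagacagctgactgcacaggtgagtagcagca
The steroidogenic factor 1 motif began at position -215 in the Cga window and at -129 and -59 in the Lhb window, counted from the start site. In the form searched, the Egr1 motif occurred once, in the Lhb window, at -50, and overlapped none of the other matches. Among 32851 promoter windows of the same length, 6.71% held the steroidogenic factor 1 motif and 5.21% the Egr1 motif. The letters TAATCC, a Pitx1 motif found in 7.06% of windows, and AGATAA, a motif of the GATA factors found in 11.2%, were in none of the 3 windows on either strand. Each motif was searched in 1 form, and other forms that these factors may bind were not looked for. The like window of Gnrhr, a bright gene, held no match to any of these motifs. A match is a description of letters and says nothing of binding. Egr1 itself, induced by gonadotropin-releasing hormone, was intermediate at 297, 299 and 295, or 2.29 times the mode.

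Secreted hormones and growth factors were mostly near background. Of 118 measured, 41 (34.7%) were above the bound on 3 of 3 arrays and 9 (7.63%) were bright, against 51.8% and 16.1% of all genes. At background were 64 (54.2%, against 36.9%). The 118 genes had a median level of 1.05 times the mode, against 1.21 for all genes. The plot of genes by class sets the lists described here side by side.

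**Figure D2:**
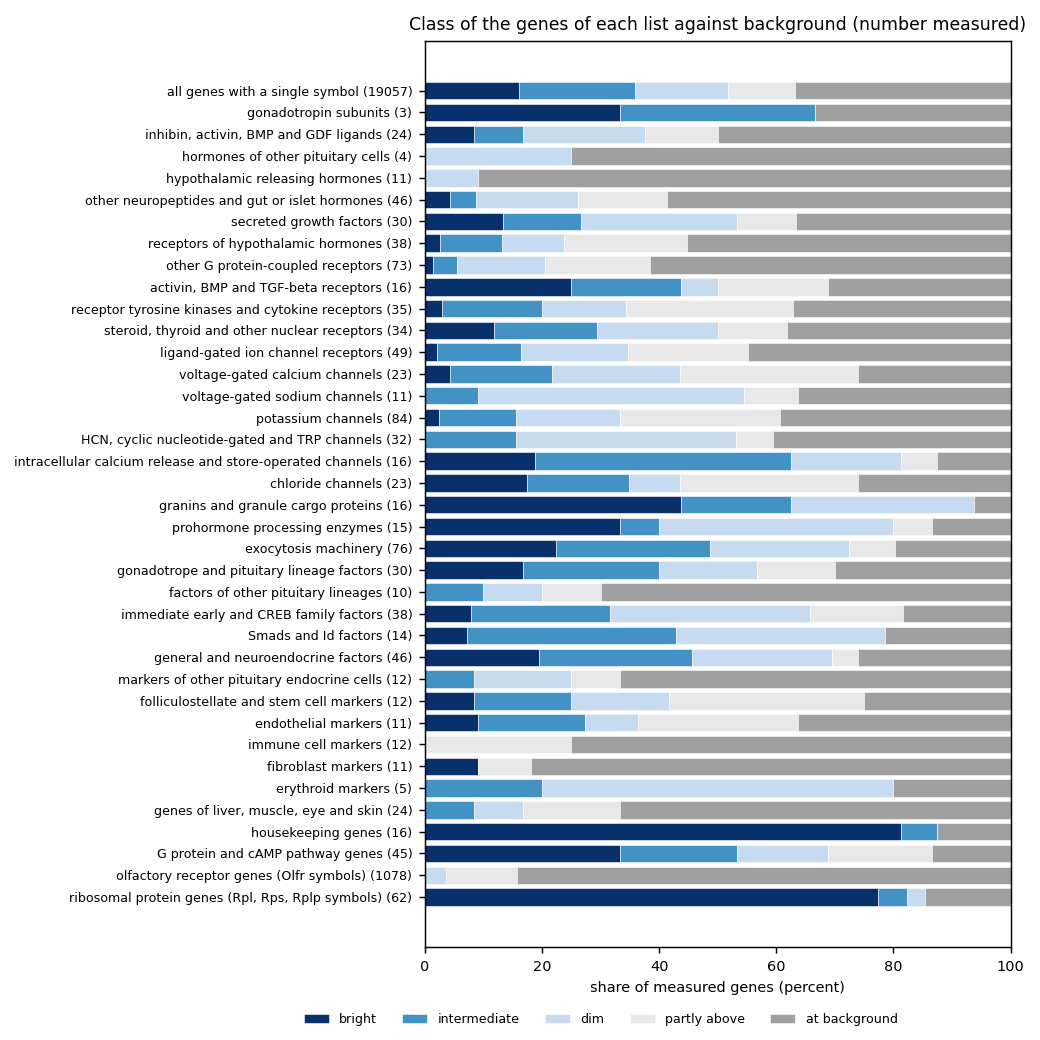
Share of measured genes in each class (stacked bars, x axis in percent) for all 19057 genes and for each list of hormone, receptor, channel, granule, transcription factor, marker and reference genes, with the number measured in parentheses. Of 16 granins and granule cargo genes 1 was at background, against 10 of 11 hypothalamic releasing hormones, and olfactory receptor genes show no bright share.

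Among 24 ligands and binding proteins of the activin and bone morphogenetic protein family, 9 (37.5%) were above the bound and 12 (50%) at background. The shares of all genes were 51.8% and 36.9%. Gdf9, a growth factor best known from the oocyte, was bright at 3650, 3185 and 3964, or 27.6 times the mode (SD 0.16, n = 3). Gdf1, a ligand that acts in left-right patterning of the embryo, was bright at 1067, 1280 and 1284, or 9.27 times. Gdf9 and Gdf1 were the 2 bright members of the family on this array. Inha, the α-subunit of inhibin, was intermediate at 676, 738 and 887, or 5.86 times the mode, with an SD of 0.201, above the 95th percentile of all genes above the bound (0.191). Tgfb1 was intermediate at 250, 360 and 300. Inhba, the activin A subunit, read 118, 146 and 140 and passed the bound on 1 array, and Fst, which encodes the activin-binding protein follistatin, was at background at 133, 124 and 129. Inhbb was not analysed here.

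Hormones of the other endocrine cells of the pituitary were at background in 3 of 4 cases (75%, against 36.9% of all genes). Prl (prolactin) read 120, 120 and 127, Pomc (the corticotropin precursor) 129, 123 and 121, and Tshb (the thyrotropin β-subunit) 129, 122 and 124. Gh, growth hormone, was dim at 150, 185 and 170, or 1.29 times the mode, and this call was lost with a bound at the 99th percentile of background. In bulk RNA, a few cells with much of a transcript and many cells with little of it cannot be told apart. Of 11 hypothalamic releasing and related peptides, 10 (90.9%) were at background and Oxt, oxytocin, was dim at 1.2 times the mode.

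Other peptide genes held a few with clear signal. Of 46 neuropeptide and gut or islet hormone genes, 27 (58.7%) were at background and 12 (26.1%) above the bound. The shares of all genes were 36.9% and 51.8%. Bright members numbered 2 (4.35%, against 16.1%). Pdyn, the precursor of the dynorphin opioids, read 2060, 1983 and 1998, or 15.5 times the mode. Nxph1, a secreted ligand of neurexins, read 1422, 1255 and 1438, or 10.5 times, while its other probe lay at 0.996 times the mode. Nmu, neuromedin U, was intermediate at 930, 939 and 663, with replicate 3 the low array and an SD of 0.286. Insl6, an insulin-like peptide known from testis, was intermediate at 2.88 times the mode. The 30 growth factor genes had 16 (53.3%) above the bound, near the 51.8% of all genes, and 4 (13.3%) bright, against 16.1%. Of the bright ones, Hdgf was at 40.6 times the mode and the platelet-derived growth factor Pdgfa at 14.2. The vascular endothelial growth factors Vegfb and Vegfa were at 25.5 and 24 times.

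Receptor genes had 78 of 245 (31.8%) above the bound, against 51.8% of all genes, and 12 bright (4.9%, against 16.1%). The 119 at background were 48.6%, against 36.9% of all genes, and the median was 1.08 times the mode. Among 38 receptors of hypothalamic and related hormones, Gnrhr was the bright member, 4 were intermediate, 4 dim and 21 at background. The 9 above the bound (23.7%, against 51.8% of all genes) became 5 with the median probe of each gene. The dopamine receptor genes Drd4 and Drd2 were intermediate: Drd4 read 1059, 1024 and 990, or 7.87 times the mode. Drd2, which in the pituitary mediates the inhibition of prolactin cells, read 762, 770 and 723, or 5.78 times. Mtnr1a, a melatonin receptor known from the gonadotropes of newborn rats, read 520, 590 and 559, or 4.27 times. Each of these was above the bound on every array. Sstr2, a somatostatin receptor, was at 2.32 times the mode. Adcyap1r1, the receptor of the pituitary adenylate cyclase-activating peptide, was dim at 163, 161 and 166, or 1.26 times. Kiss1r, Trhr, Ghrhr and Oxtr, the receptors of kisspeptin, thyrotropin-releasing hormone, growth hormone-releasing hormone and oxytocin, were at background.

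The 73 other G protein-coupled receptors included 15 (20.5%) above the bound and 45 (61.6%) at background, against 51.8% and 36.9% of all genes. F2r, a thrombin receptor, was the bright member at 1131, 1001 and 1199, or 8.52 times the mode, just above the lower limit of the class. Gper1, a G protein-coupled receptor for oestrogen, was intermediate at 3.93 times.

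Receptors of the activin, bone morphogenetic protein and transforming growth factor β family had 8 of 16 above the bound. This share of 50% was near the 51.8% of all genes, and 4 (25%) were bright, against 16.1%. With the median probe 5 were above the bound. These receptors work as pairs of a type I and a type II serine/threonine kinase that phosphorylate Smad proteins. Amhr2, the type II receptor of anti-Müllerian hormone, read 7374, 8052 and 7651, or 59.1 times the mode, and each of its 3 probes was bright, the dimmest at 10.2 times. Tgfbr1, a type I receptor also called ALK5, read 2271, 2026 and 1948, or 16 times, but 1 of its 4 probes was above the bound and the dimmest lay at 0.904 times. Bmpr2, a type II receptor used by Gdf9 in the ovary, read 1289, 1277 and 1342, or 10 times. The bright call of Tgfbr1 thus rested on 1 probe, unlike that of Amhr2. Tgfbr3, the coreceptor betaglycan, which also binds inhibin, was bright at 9.23 times the mode. Of the activin receptors, the type II receptor Acvr2b was intermediate at 676, 796 and 668, or 5.47 times. Acvr1b, the type I receptor also called ALK4, was dim at 183, 205 and 220, or 1.56 times. Acvr2a, the other type II receptor, read 147, 150 and 134 and passed the bound on 2 arrays, and Acvr1c, another type I receptor, was at background at 132, 125 and 114. Acvr1 and Bmpr1a, type I receptors of bone morphogenetic proteins, were intermediate at 4.37 and 2.95 times the mode.

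**Figure D3:**
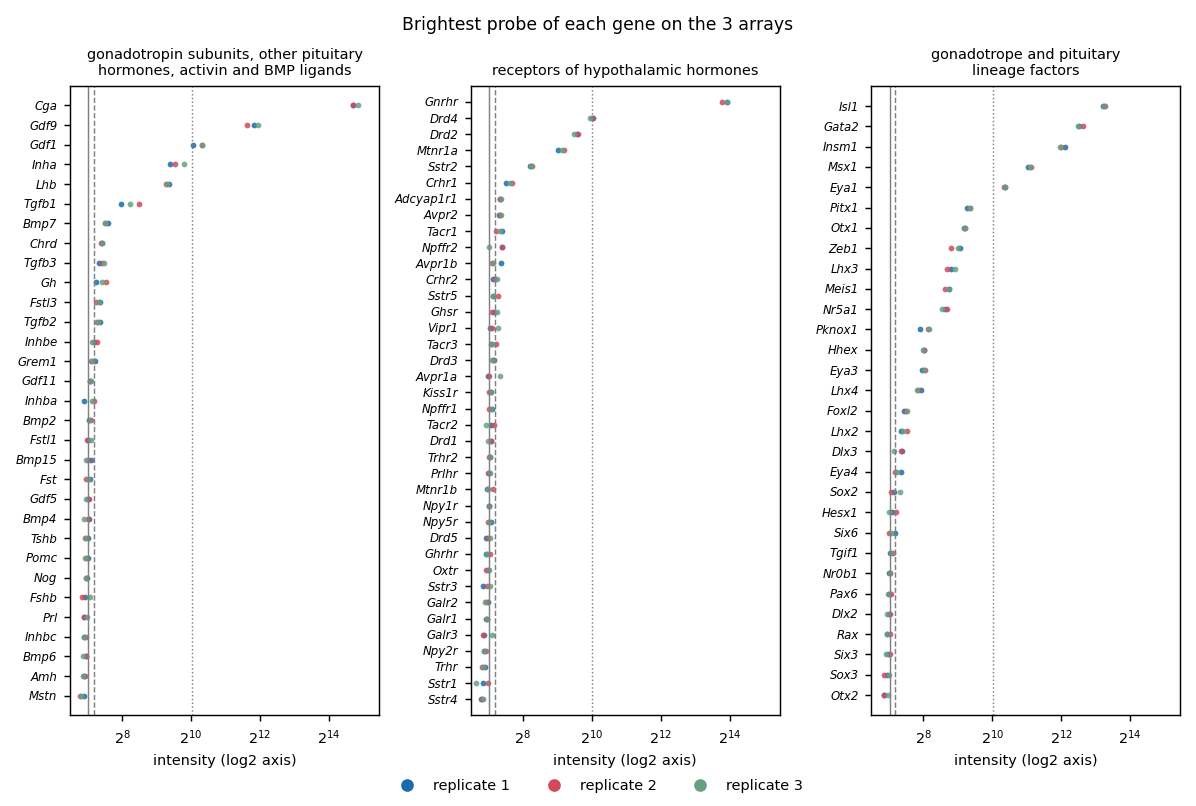
Intensity on each of the 3 arrays (points, log x axis) for genes of 3 panels (y axis): gonadotropin subunits with other pituitary hormones and activin family ligands, receptors of hypothalamic hormones, and pituitary lineage factors. The solid line marks the mode, the dashed line the bound and the dotted line 8 times the mode. Cga, Gnrhr and Isl1 lie far right of the dotted line, and Fshb, Prl and Otx2 lie about the mode.

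Receptor tyrosine kinases and cytokine receptors had 12 of 35 (34.3%) above the bound, against 51.8% of all genes. Axl, a kinase of the TAM family, was the bright member at 18.3 times the mode. Ddr1, a collagen receptor, was intermediate at 4.77 times. Of 34 nuclear receptors, 17 (50%) were above the bound, near the 51.8% of all genes, and 4 (11.8%) were bright, against 16.1%. The bright ones were Rxrb (a retinoid X receptor) at 18.9 times the mode, Rorb at 10.4, Ppard at 8.56 and Esrra at 8.49. Esrra, an orphan related to the oestrogen receptors, read 1097, 1113 and 1100. Among the steroid receptors that carry feedback to the pituitary, Esr1, Pgr and Nr3c1 gave no signal above the bound. Esr1 read 137, 136 and 139 on the brightest of 4 probes. Pgr, the progesterone receptor, read 127, 130 and 138. Nr3c1, the glucocorticoid receptor, read 130, 139 and 145, the last just under the bound of 146. Nr4a1, an orphan receptor induced by gonadotropin-releasing hormone, was also at background.

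Among 49 ligand-gated channel subunits, 17 (34.7%) were above the bound, against 51.8% of all genes. At background were 22 (44.9%, against 36.9%), and 1 was bright. Chrna4, a neuronal nicotinic acetylcholine receptor subunit, read 4576, 4550 and 4774, or 35.6 times the mode, and all of its 3 probes were above the bound, the dimmest at 1.85 times. Chrnb2, the subunit that joins it in the common brain receptor, was intermediate at 4.15 times, and Chrna2 read 1066, 813 and 1075, or 7.51 times. All 3 nicotinic subunit genes named here were thus at least 4.15 times the mode. Grin3a, an NMDA receptor subunit, read 860, 775 and 1141, or 7.02 times, with replicate 3 the high array (SD 0.289). Htr3a, the serotonin-gated channel subunit, was at 4.49 times.

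Ion channel genes other than ligand-gated receptors had 84 of 189 (44.4%) above the bound, against 51.8% of all genes, and 10 bright (5.29%, against 16.1%). The 64 at background were 33.9%, near the 36.9% of all genes, and the median was 1.14 times the mode. Voltage-gated calcium channels, which open the way for hormone release, had 10 of 23 (43.5%) above the bound, against 51.8% of all genes. Cacna1h, a low-threshold T-type channel, was the bright member at 1665, 1410 and 1849, or 12.5 times the mode, with 2 of its 3 probes above the bound and the dimmest at 0.957 times. Cacna1c, an L-type channel, read 151, 165 and 144 on the brightest of 7 probes and passed the bound on 2 arrays. The other neuroendocrine L-type channel gene, Cacna1d, was partly above too. Cacng5, an accessory subunit, was intermediate at 5.42 times.

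Of 84 potassium channel genes, 28 (33.3%) were above the bound, against 51.8% of all genes. At background were 33 (39.3%, against 36.9%), and 2 were bright (2.38%, against 16.1%). Kcnab2, a cytoplasmic β-subunit, read 2013, 2305 and 1857, or 15.8 times the mode. Kcng4, a modulatory subunit that forms no channel alone, read 1334, 1387 and 1376, or 10.5 times. The bright members were thus both auxiliary or modulatory subunits. Several pore-forming genes were intermediate, among them Kcnd2 (the A-type current) at 7.34 times the mode, Kcnk1 (a leak channel) at 6.53, Kcnc4 at 5.96, Kcnh2 (the ERG channel) at 5.36 and Kcnma1 (the calcium-activated BK channel) at 2.3. Kcnma1 read 335, 313 and 253.

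Sodium channels had 6 of 11 (54.5%) above the bound, near the 51.8% of all genes. The count fell to 2 with either the mean or the median of a gene's probes. Scn3a was the intermediate member at 726, 693 and 817, or 5.72 times the mode. The pacemaker and transient receptor potential genes had 17 of 32 (53.1%) above the bound, also near the share of all genes, and 0 bright. The 17 became 9 with the mean of all probes and 7 with the median probe. Hcn2, a pacemaker channel opened by hyperpolarisation, read 1041, 1071 and 931, or 7.79 times, just under the bright class. Trpc1 and Trpv2 were at 2.93 and 2.92 times. Intracellular calcium channels and store-operated channels had 13 of 16 (81.2%) above the bound, against 51.8% of all genes. The bright ones were the mitochondrial outer membrane channels Vdac1, at 16006, 13688 and 14913, or 114 times the mode, Vdac3 at 22 and Vdac2 at 11.6. Stim1, the calcium sensor of the endoplasmic reticulum, was intermediate at 1081, 950 and 815, or 7.25 times, and its partner Orai1 was at 3.7 times. Itpr3, an inositol trisphosphate receptor that releases stored calcium, was at 3.94 times. Of 23 chloride channel genes, 10 (43.5%) were above the bound and 4 (17.4%) bright, against 51.8% and 16.1% of all genes. The brightest was Clcn3, an endosomal and vesicular chloride exchanger, at 6107, 5861 and 6222, or 46.6 times the mode.

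Secretory granule and exocytosis genes had the highest share above the bound of the 5 groups: 82 of 107 (76.6%) were above it, against 51.8% of all genes. Bright genes numbered 29 (27.1%, against 16.1%) and 18 were at background (16.8%, against 36.9%), with a median of 1.98 times the mode. Of 16 granins and other granule cargo genes, 15 (93.8%) were above the bound and 7 (43.8%) bright. Scg2, secretogranin II, read 21453, 24853 and 21842, or 174 times the mode, while its other probe lay at 1.04 times. Chga, chromogranin A, read 5479, 6247 and 5653, or 44.5 times, with the dimmest of its 3 probes at 24.4 times. Scg5, the chaperone of a prohormone convertase, read 4421, 4356 and 4010, or 32.7 times. Scg2, Chga and Scg5 were bright on every array, and Chga was bright on every probe as well. Chgb, chromogranin B, was at 29.2 times the mode, Scg3 at 17.8 and Pcsk1n, the precursor of a convertase inhibitor, at 15.6. Vgf, a nerve growth factor-inducible granule protein, was intermediate at 4.09 times.

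Enzymes that process prohormones had 12 of 15 (80%) above the bound, against 51.8% of all genes, or 7 with the median probe. Cpe, the carboxypeptidase that trims cleaved hormones, was bright at 3738, 3692 and 4183, or 29.7 times the mode. The proprotein convertases Pcsk7 and Pcsk6 were bright at 9.88 and 9.52 times, and Furin was intermediate at 7.09. Pcsk1, the convertase of the regulated granule pathway, was at background on both of its probes, the brighter reading 124, 121 and 128. Pam, which amidates peptide hormones, read 162, 161 and 145 and passed the bound on 2 arrays.

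Of 76 genes of vesicle transport and exocytosis, 55 (72.4%) were above the bound and 17 (22.4%) bright, against 51.8% and 16.1% of all genes. Slc32a1, the vesicular transporter of GABA and glycine, read 5839, 6657 and 6056, or 47.5 times the mode, from 1 probe. Gad1 and Gad2, the enzymes that make GABA, were at background on their brightest probes, Gad1 at 139, 137 and 135 on the brightest of 4. Thus the transporter probe was bright and the brightest probes of the synthesising enzymes were not above the bound. Syt4, a synaptotagmin, read 5322, 5242 and 5432, or 41 times, and Cadps2, a priming factor of dense granules, read 4875, 5137 and 5634, or 40 times. The membrane fusion genes Stx1a at 33.9 times the mode, Vamp3 at 26.3 and Nsf at 25.4 were bright, as were the granule GTPases Rab27a at 28.9 and Rab3d at 20.7. Snap25, the partner of Stx1a in the fusion complex, was at background on both probes, the brighter at 119, 125 and 130. Vamp2, the vesicle partner, was intermediate at 765, 644 and 703. Syt1, a calcium sensor of fast release, read 132, 136 and 150 and passed the bound on 1 array.

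**Figure D4:**
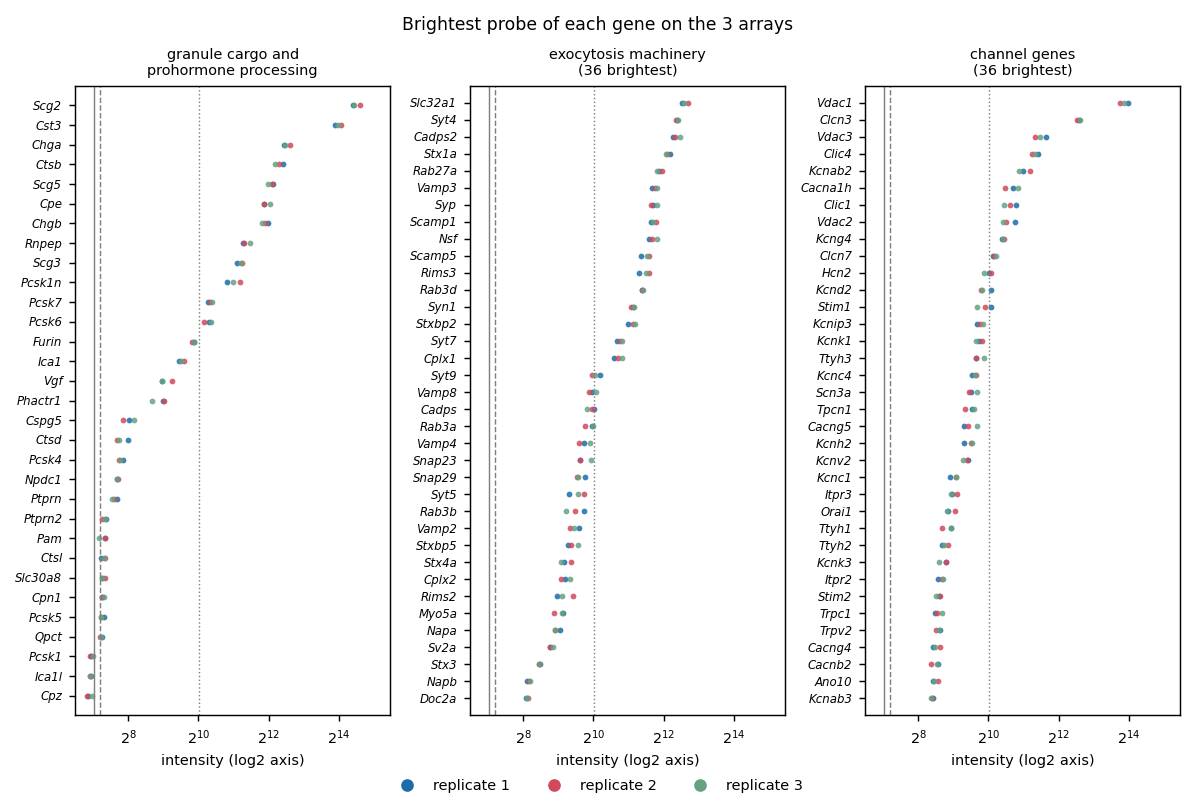
Intensity on each of the 3 arrays (points, log x axis) for granule cargo and prohormone processing genes (left panel), the 36 brightest exocytosis genes (middle) and the 36 brightest channel genes (right), with the mode (solid), the bound (dashed) and 8 times the mode (dotted). Scg2 and Vdac1 lie above 100 times the mode, and Pcsk1 lies about the mode.

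Transcription factor genes had 87 of 138 (63%) above the bound, against 51.8% of all genes, and 18 bright (13%, against 16.1% of all genes), with a median of 1.4 times the mode. Among 30 gonadotrope and pituitary lineage factors, 17 (56.7%) were above the bound, 5 (16.7%) bright and 9 (30%) at background. The first 2 shares were near the 51.8% and 16.1% of all genes, and 36.9% of all genes were at background. Isl1, a LIM homeodomain factor of the early pituitary, read 9449, 9903 and 9733, or 74.5 times the mode (SD 0.0342). Gata2, a zinc finger factor needed for full gonadotrope function in mice, read 5805, 6350 and 5716, or 45.8 times. Insm1, a neuroendocrine zinc finger factor, read 4443, 4082 and 3969, or 32 times. The other bright members were the homeobox gene Msx1, at 2082, 2231 and 2171, or 16.6 times, and the eyes absent gene Eya1, at 1319, 1298 and 1329, or 10.1 times. Pitx1, which acts with steroidogenic factor 1 and Egr1 on Lhb, was intermediate at 619, 648 and 653, or 4.92 times. Lhx3, a LIM homeodomain factor of the pituitary, was intermediate at 446, 411 and 487, or 3.43 times. Foxl2, a forkhead factor required for Fshb in mice, was dim at 175, 180 and 185, or 1.38 times. Several early pituitary factors gave no signal above the bound, including Otx2, Six3, Pax6 and Sox3. Nr0b1, a repressor of steroidogenic factor 1 also called DAX, read 127, 131 and 132.

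Factors of other pituitary lineages were at background in 7 of 10 cases (70%, against 36.9% of all genes). Among them were Tbx19 (the corticotrope factor), Pax7 and Neurod1. Sox9 was the intermediate member at 2.05 times the mode. Among 38 immediate early and cAMP-responsive factors, 25 (65.8%) were above the bound and 3 (7.89%) bright, against 51.8% and 16.1% of all genes. The bright ones were Atf4 at 46.9 times the mode, Atf5 at 42.6 and Atf2 at 11.3. Fos was dim at 1.72 times and Jun intermediate at 2.07. Of 14 Smad and Id genes, 11 (78.6%) were above the bound, against 51.8% of all genes. Smad3, the effector of activin signalling on Fshb, was the bright member at 4273, 4069 and 5213, or 34.5 times the mode, and its partner Smad2 was intermediate at 7.48. Smad7, the inhibitory Smad, was at background. Of 46 general factors, 9 (19.6%) were bright, against 16.1% of all genes. Among them were the circadian output factor Dbp at 55.2 times the mode, Hes6 at 46.4, Nfyc at 37.1, Clock at 25.3 and Rela at 23. Gata6 was bright too, at 4383, 4022 and 4277, or 32.5 times.

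Coupling of Gnrhr to the cell runs through G proteins, and 31 of 45 (68.9%) G protein and cAMP pathway genes were above the bound. Bright members numbered 15 (33.3%), and the shares of all genes were 51.8% above the bound and 16.1% bright. Gnas, which encodes the stimulatory α-subunit, read 3697, 3579 and 3864, or 28.5 times the mode. Of its 10 probes 6 were above the bound and the dimmest lay at 0.97 times. Gnaq and Gna11, the α-subunits that activate phospholipase C, were bright at 14.4 and 18 times. Protein kinase A and C genes were bright as well, with Prkar1a at 64.2 times the mode, Prkcb at 54.7 and Prkaca at 34.9. Adcy6, an adenylate cyclase, was intermediate at 398, 428 and 405, and Gnai3, an inhibitory α-subunit, was at background at 128, 118 and 116.

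Markers of other cell types differed between lists in how many lay above background. Of 12 immune markers 9 (75%) were at background, against 36.9% of all genes, and 3 partly above. Of 11 fibroblast markers 9 (81.8%) were at background, with Fbln1, a matrix protein, bright at 10.9 times the mode. Of 11 endothelial markers 4 (36.4%) were above the bound, against 51.8% of all genes. A further 3 were partly above and 4 (36.4%, against 36.9%) at background. Egfl7 was bright at 10 times, Cdh5 read 967, 910 and 870, or 7.03 times, and Pecam1 read 676, 662 and 665, or 5.13 times, while Tie1, Emcn, Esam and Cldn5 were at background. Thus 3 endothelial markers were well above the bound and 4 were at background. Of 12 folliculostellate and stem cell markers 5 (41.7%) were above the bound, 4 partly above and 3 (25%) at background. Aldoc, a glycolytic enzyme, was bright at 2335, 1650 and 2144, and S100b and Anxa1 were at background. Of 5 erythroid markers 4 (80%) were above the bound on every array, against 51.8% of all genes. Alas2, the first enzyme of haem synthesis in red cells, was intermediate at 4.61 times, 3 globin genes were dim, and Hbb-b2 was at background.

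Reference lists show how far a class can be read as expression. Of 1078 olfactory receptor genes, which pituitary cells are not known to use, 908 (84.2%) were at background, 39 (3.62%) were above the bound and 0 were bright. The 39 were all dim, under 2 times the mode. Of all genes, 36.9% were at background, 51.8% above the bound and 16.1% bright. Of 62 ribosomal protein genes, 48 (77.4%) were bright. Of 16 housekeeping genes 13 were bright, yet Tpt1 and Sdha, which cells in general express, were at background. A gene at background is therefore one without signal on this array's probes, and absence of its transcript was not shown.

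The 20 genes with the brightest probes, ribosomal protein, clone, predicted and Riken names left out, are given as a description of probes and not as an order of transcript amounts. Tuba1b, an α-tubulin, read 36680, 37845 and 36335, or 284 times the mode, and Fth1, the ferritin heavy chain, reached 265 times. The others included Ppia and Tubb5, the glycolytic genes Ldha and Pkm, the respiratory chain and ATP synthase genes Atp5b, Atp5g3, Uqcr10, CYTB and ND4, and 5 histone genes of the H2A class (H2ac7, H2ac10, H2ac13, H2ac20 and H2ac24). Cga stood among them as the cell type's own hormone gene. Histone genes of 1 class are close to identical, so their probes may read each other's transcripts.

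Probes of 1 gene often disagreed. Of 9172 genes with 2 or more probes, 6166 (67.2%) had probes in different classes, and 3081 (33.6%) had a brightest probe above the bound on 3 of 3 arrays with another above on none. Of 1884 such genes that were bright, 268 (14.2%) were bright on every probe and 674 (35.8%) had another probe at background. Scg2, Nxph1 and Tgfbr1 belonged to the latter kind, and Chga and Amhr2 to the former.

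The replicates agreed closely. Pearson's r between arrays, over all probes, was 0.9957 to 0.9959, as a description over probes that share the array's binding properties. Over the 9876 genes above the bound, the median SD of log2 intensity was 0.0842, the 95th percentile was 0.191, and 0 genes had a range of 2-fold or more. With these genes ordered by brightness and split into 4 equal bins, the median SD was 0.0705 in the dimmest bin and 0.0935, 0.0933 and 0.0826 in the following bins. The intensities keep the background, which compresses log2 differences, most near the floor. With background subtracted by a normal-exponential model (offset 16), the median SD over all these genes was 0.126. A gene was said to have high spread when its SD was at least 3 times the running median of genes of like brightness, and 81 genes (0.82%) met this. With the limit at 2 times, 727 genes met it, and at 4 times, 14.

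Among the 10 genes with the highest ratio of SD to the running median were 4 histone genes. Pvalb, the calcium-binding protein parvalbumin, had the highest ratio, 5.76, with intensities of 3994, 3748 and 6731. COX2, the mitochondrially encoded subunit of cytochrome oxidase, read 4290, 2495 and 2415. H4c8, a histone H4 gene, read 987, 1805 and 1067. Replicate 3 was thus the high array for Pvalb, replicate 1 for COX2 and replicate 2 for H4c8. H4c12 read 448, 831 and 514, H2ac18 543, 961 and 548, and H2ac19 688, 1102 and 663, each highest in replicate 2. The other 4 were Wdr89, Ndufb9, Rps3a1 and Arpc2, each highest in replicate 1. Among the hormone, receptor, channel, granule and transcription factor genes, Bhlhe40, a circadian and hypoxia-responsive repressor, had the widest spread for its level, at 1271, 755 and 814 (SD 0.406), with replicate 1 the high array.

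After these values were seen, groups of genes were drawn up and followed array by array, without a test. Clustered histone genes, whose transcripts are made when DNA is replicated, had 46 of 50 above the bound, and 35 of the 46 (76.1%) were highest in replicate 2, against 33.7% of all 9876 genes. Their median deviation from the gene's mean was 0.143 log2 units in replicate 2, -0.057 in replicate 1 and -0.087 in replicate 3. The 46 include 13 of the high-spread genes seen beforehand. Probes of 1 histone class may read each other's transcripts, so the 46 are not separate observations. Other histone genes, 9 above the bound, had a median deviation of 0.051 in replicate 2. Genes of S phase, 20 above the bound, had a median deviation of 0.026 in replicate 2, and genes of G2 and M phase, 13 above, -0.054. Glycolysis and hypoxia-response genes ran the other way: 21 of 24 (87.5%) were lowest in replicate 2, against 33.5% of all genes, with median deviations of 0.085 in replicate 1 and -0.128 in replicate 2. The 24 include 4 high-spread genes. This share varied between other lists, which may share members with the 24. It was 71.4% of 14 housekeeping genes, 66.7% of 12 prohormone processing enzymes and 22.6% of 31 G protein and cAMP pathway genes. Mitochondrially encoded genes, 6 above the bound, had a median deviation of 0.157 in replicate 1. These shifts lie within 1 group of arrays given the same treatment, and their cause was not tested.

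**Figure D5:**
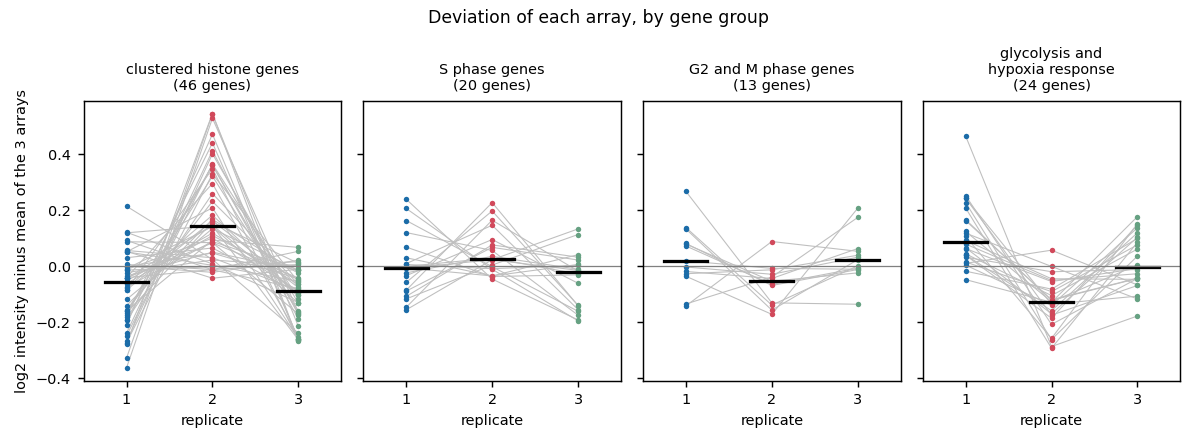
Deviation of each gene's log2 intensity from its mean over the 3 arrays (y axis, log2 units), by replicate, for genes above the bound in 4 groups drawn up after the values were seen. Each point is a gene, grey lines join a gene's 3 values and black bars are medians. Clustered histone genes lie mostly above 0 in replicate 2, and glycolysis and hypoxia-response genes mostly below 0.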

How the data were processed

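Biotin-labelled cRNA from LβT2 cells was hybridised to Illumina mouse whole-genome bead arrays. The deposited intensity values are linear and fall on 1 common distribution: sorted values of the 3 arrays differ by at most 1.67% below the 10 brightest probes. The submitters' processing notes name BeadStudio, and how the values were normalized is not stated by the labels or file headers. A further table with 24 value columns (4 measures of 6 arrays) was not used, because its column names match no sample's labels. Probes were named through GEO's platform annotation: 34885 had 1 symbol, 18 several, and 10378 were unlisted and stay unnamed here.

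Arrays were grouped by their transfection label. Mode, bound, classes and spread were computed with Python 3.11.15, numpy 2.4.6, pandas 2.3.3 and scipy 1.17.1, tested on simulated data. The running median of SD used a window of 501 genes. No comparison between groups was made, so no p-value is given. Of 1029 genes asked for in 35 lists, 927 were measured. The members and lists were chosen with earlier results of these data known. The text names the markers, the bright members of each list (at most 8) or else its 3 brightest, members at background that textbooks tie to gonadotropes or that belong to short lists, the 20 brightest genes, the 10 genes of widest relative spread, and Gnas, Gdf9 and its candidate receptors. Gad1, Gad2 and the other genes set beside a bright partner were picked after their values were seen.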

Additional observations from a re-analysis of the deposited data

How the results depend on the processing

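Of 234 recomputed counts and summary values over all genes and the 5 groups, 213 stayed within 1.5 times the value reported or, for a median, within its spread, and 21 moved. Many of the 213 could not move, so their number does not measure stability. A higher bound left each bright count as it was, and a new limit of the bright class left each count above the bound. Renormalizing could change little, because the arrays already shared 1 distribution. Of 360 further values, for single lists and markers, 347 stayed and 13 moved. With the mean of all probes, bright genes fell from 3069 to 1747, hormones from 9 to 5, receptors from 12 to 4, channels from 10 to 6 and transcription factors from 18 to 10, and genes of high spread rose from 81 to 183. With the median probe, bright genes numbered 1808, bright receptors 4 and bright transcription factors 10, and channels above the bound fell from 84 to 55. With bright set from 16 times the mode there were 1612 bright genes, 5 hormones, 5 receptors and 4 channels. Of the 13 moves, 11 came from combining probes: besides the list counts given in the report, Nr5a1 fell to 1.37 log2 units over the mode, and Lhb to 1.55. The other 2 were the loss of Gh, with a bound at the 99th percentile and with a doubled bandwidth. Calling on the mean of the arrays leaves 0 genes partly above, by construction. Leaving out each array in turn gave 1402 to 1466 genes partly above, against 2155, and 403 to 518 genes of high spread, since an SD over fewer arrays varies more. With the limit of high spread at 4 times the running median 14 genes met it, and at 2 times 727.

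A bound at the 99th percentile, a changed bandwidth and background read from olfactory receptor probes (chosen after seeing the data) left 9229 to 10431 genes above the bound, against 9876. No paired analysis was possible because 1 group was described and no result comes from a test. Protein sequences were not used here. The distance of a probe's signal from background limits what can be called: values between the mode and the bound have no order.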
